A study of Homo sapiens with 10 samples.

Results

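CD44 was read on its own 13 probe sets, out of 54613 probe sets that are not controls on each array. A probe set is a group of short oligonucleotides that together report 1 stretch of transcript, and the 13 were all those that the platform annotation assigns to CD44 and to no other gene. CD44 was chosen because its signal was lower in the bortezomib-resistant cells of both lines studied. Its difference between resistant and other cells is therefore described below with its error and is not tested.

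The arrays carried RNA of HBL2 and JEKO, established lines of mantle cell lymphoma, a tumour of mature B cells. Cells labelled BR are those in which resistance was induced by bortezomib, a proteasome inhibitor. Cells labelled PT carry no such entry and are taken from knowledge of the study to be the parental cells of the same line. HBL2 contributed 3 PT and 3 BR arrays and JEKO 2 PT and 2 BR arrays, all from cells in logarithmic growth. No other treatment is named, and the labels do not state the drug dose or the length of selection. The labels do not say whether replicates were separate cultures or whether a resistant line was 1 clone. The p-values below therefore cover the variation between these arrays, part of which may be technical.

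CD44 is a single-pass membrane glycoprotein whose best-known ligand is hyaluronan, a long sugar chain of the extracellular matrix. Its transcript is spliced into a standard form and many variant forms that carry extra exons. Inside the cell CD44 is tied to the actin cytoskeleton through ERM proteins, and its outer part can be shed by membrane proteases before gamma-secretase cuts the remainder. On lymphocytes it takes part in adhesion, rolling and homing.

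Values are the deposited scores, a log-like unit of unstated base. Every array holds the same set of scores, with a median of 0.73 and a range of 0 to 4.99, so a score carries a probe set's rank within an array and nothing more. The rank is also given as a percentile among all probe sets of the array. Probe sets bind with different strength, so scores of different probe sets are not compared as amounts of RNA. In bulk RNA of this kind, fewer cells carrying a transcript and less transcript per cell cannot be told apart.

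The probe set with the highest mean, 212063_at, scored 1.53, 1.68 and 1.86 on the HBL2 PT arrays and 0.32, 0.53 and 0.90 on the HBL2 BR arrays. In JEKO it scored 1.61 and 1.64 in PT cells and 0.67 on both BR arrays. All 5 PT arrays were above all 5 BR arrays, and the PT and BR values were 0.63 apart in HBL2 and 0.94 apart in JEKO at their nearest. The HBL2 means were 1.69 ± 0.16 in PT (SD, n = 3) and 0.58 ± 0.29 in BR (SD, n = 3). The JEKO means were 1.62 ± 0.023 in PT (SD, n = 2) and 0.67 ± 0.00061 in BR (SD, n = 2). BR minus PT was -1.11 ± 0.12 in HBL2 and -0.95 ± 0.14 in JEKO, where the error is the standard error of the fit. As ranks, the probe set lay at the 85.7th to 92.6th percentile in HBL2 PT and at the 87.7th and 88.4th in JEKO PT. On BR arrays it lay at the 10.3rd, 28.8th and 62.6th percentile in HBL2 and at the 44.4th and 44.3rd in JEKO.

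Ordered by the mean of 212063_at, the groups ran from HBL2 PT through JEKO PT and JEKO BR to HBL2 BR. The PT groups did not differ beyond their spread, since both JEKO PT values fell between the lowest and highest HBL2 PT values. The BR groups did not either, since both JEKO BR values fell inside the HBL2 BR range. The step between JEKO PT and JEKO BR was the only one between neighbours without overlap. Among all probe sets, 24 had a change as low as or lower than that of 212063_at in HBL2 and 11 had one in JEKO. The only probe set in both of those counts was 212063_at itself. These counts only give the size of the change, because CD44 was picked on this contrast, and they are not a test.

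**Figure D1:**
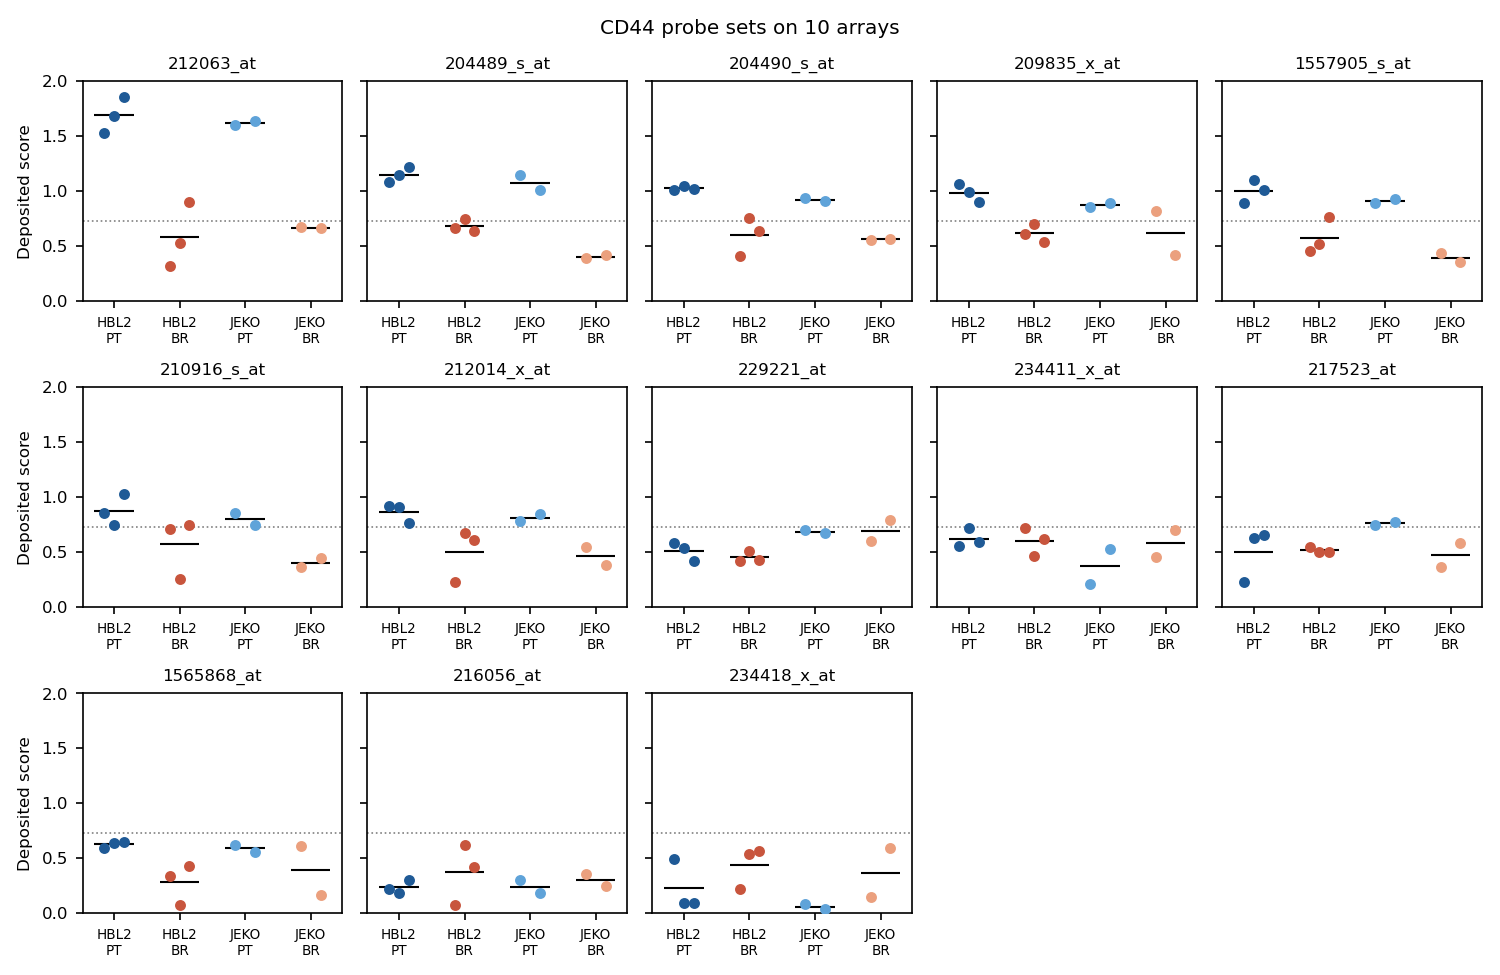
Deposited score (y axis, unit of unstated base) of each of the 13 CD44 probe sets on the 10 arrays; points are arrays, bars are group means and the dotted line is the array median of 0.73. The top row and the first panels of the next show PT values above BR values, while the last 6 panels lie near or below the median and do not share a pattern.

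Of the 13 probe sets, 10 had a negative change in HBL2 and 9 in JEKO. PT and BR values did not overlap, with BR lower, for 7 of 13 in HBL2, where 9.27% of all probe sets had this pattern. In JEKO this held for 8 of 13, against 21.1% of all probe sets, and in both lines for 6 of 13, against 2.05%. No CD44 probe set was higher in BR without overlap in HBL2 (9.45% of all probe sets), and 1 was in JEKO (20.9%). These shares are printed for scale only, because CD44 was picked on this contrast. The median change over the 13 was -0.35 in HBL2 and -0.29 in JEKO.

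The probe sets fall into 2 kinds by their level in PT cells. On every PT array 7 were at or above the median, and the other 6 were not. Choosing on the PT level favours lower BR values by itself, so the share printed here is that of the 20041 probe sets above the median on every PT array. Among those, BR was lower without overlap for 15% in HBL2, 27.1% in JEKO and 4.02% in both. Of the 7 CD44 probe sets, 6 had this pattern in HBL2, 7 in JEKO and 6 in both. CD44 was picked on this contrast and the 7 read the same gene, so these shares too are for scale only. The weakest of the 7 on PT arrays, 210916_s_at, reached the 51.5th percentile at its lowest. The nearest one outside, 217523_at, reached the 51.8th and 54th in JEKO PT but lay between the 5.6th and 43.3rd in HBL2 PT.

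The next 2 probe sets by mean carry the ending _s_at, which marks probes shared by several transcripts. The first, 204489_s_at, scored 1.08, 1.15 and 1.23 in HBL2 PT against 0.66, 0.75 and 0.64 in HBL2 BR. It scored 1.15 and 1.01 in JEKO PT and 0.40 and 0.42 in JEKO BR. Its change was -0.47 ± 0.080 in HBL2 and -0.67 ± 0.097 in JEKO, and no values overlapped in either line. The second, 204490_s_at, scored 1.01, 1.05 and 1.02 in HBL2 PT and 0.41, 0.76 and 0.64 in HBL2 BR. In JEKO it scored 0.94 and 0.91 in PT and 0.56 and 0.57 in BR. Its change was -0.42 ± 0.091 in HBL2 and -0.36 ± 0.11 in JEKO, again without overlap.

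The probe set 1557905_s_at gave 0.90, 1.10 and 1.02 in HBL2 PT and 0.46, 0.52 and 0.76 in HBL2 BR. Its JEKO values were 0.89 and 0.93 in PT and 0.44 and 0.36 in BR. The groups were apart in both lines, with changes of -0.43 ± 0.097 and -0.51 ± 0.12. For 210916_s_at the HBL2 values were 0.86, 0.75 and 1.03 in PT and 0.72, 0.26 and 0.75 in BR. This is the probe set among the 7 whose HBL2 groups overlapped, because the highest BR value passed the lowest PT value, and its HBL2 change was -0.30 ± 0.12. Leaving out 1 array at a time moved that change between -0.39 and -0.15, the last without HBL2 BR replicate 2. Its JEKO values, 0.86 and 0.75 in PT and 0.36 and 0.44 in BR, did not overlap and gave -0.40 ± 0.15.

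The ending _x_at marks probe sets in which some probes can also bind other sequences, and 4 of the 13 carry it. Of these, 209835_x_at scored 1.07, 0.99 and 0.90 in HBL2 PT and 0.61, 0.70 and 0.54 in HBL2 BR, a change of -0.37 ± 0.10. In JEKO PT it scored 0.86 and 0.90, and the BR arrays disagreed, with 0.82 on replicate 1 and 0.42 on replicate 2. Its JEKO change of -0.26 ± 0.12 therefore rests on 1 array: it was -0.059 without BR replicate 2 and -0.45 without BR replicate 1. The other, 212014_x_at, scored 0.93, 0.91 and 0.77 in HBL2 PT and 0.23, 0.68 and 0.61 in HBL2 BR. Its HBL2 change was -0.36 ± 0.11, and -0.23 without BR replicate 1. The JEKO values were 0.78 and 0.85 in PT and 0.55 and 0.39 in BR, a change of -0.35 ± 0.14.

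**Figure D2:**
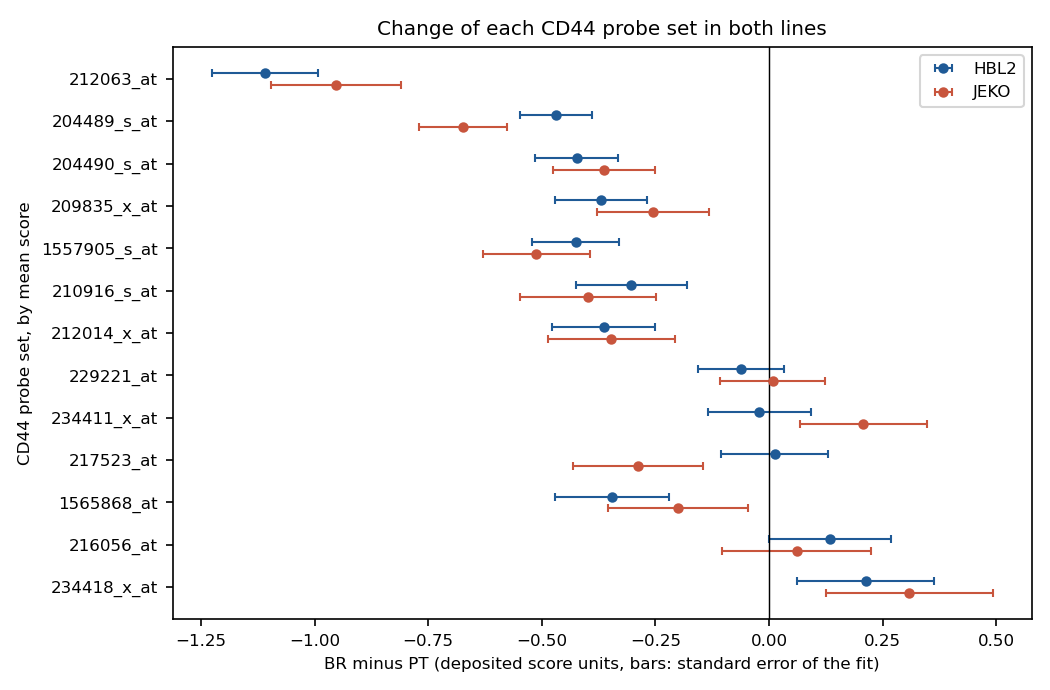
BR minus PT of each CD44 probe set (x axis, deposited score units) in HBL2 (blue) and JEKO (red), ordered from the top by mean score; bars are standard errors of the fit. The 7 upper probe sets lie left of 0 in both lines, from -1.11 to -0.30 in HBL2 and from -0.95 to -0.26 in JEKO, and the 6 lower ones lie on both sides of 0.

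Across the 7, the size of the change differed more than its direction. The change of 212063_at exceeded that of every other CD44 probe set, the next being 204489_s_at in both lines (-0.47 in HBL2 and -0.67 in JEKO). On the 5 PT arrays 212063_at was always the highest CD44 probe set, and on the 5 BR arrays it was so on 1. The median over the 7 on each array was 1.01 to 1.05 in HBL2 PT, 0.46 to 0.68 in HBL2 BR, 0.42 to 0.55 in JEKO BR and 0.89 to 0.91 in JEKO PT. The 5 PT arrays were again all above the 5 BR arrays. Because the 7 were chosen by their PT level, 0 of them were below the array median on PT arrays. On the HBL2 BR arrays 7, 5 and 4 of the 7 were, and on the JEKO BR arrays 6 and 7 were. The choice favours this order of PT and BR by itself, and the matching counts over other probe sets chosen so were not made.

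Within a group, some pairs of the 7 probe sets moved together from array to array and others did not. Over the 21 pairs of probe sets, the correlation of deviations from the group means ran from -0.63 to 0.86 over the 10 arrays, with a median of 0.12, and 12 of the pairs were positive. HBL2 BR replicate 1 had 6 of 7 below its group mean and replicate 3 had 5 of 7 above. On 212063_at too, replicate 1 was the lowest and replicate 3 the highest.

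**Figure D3:**
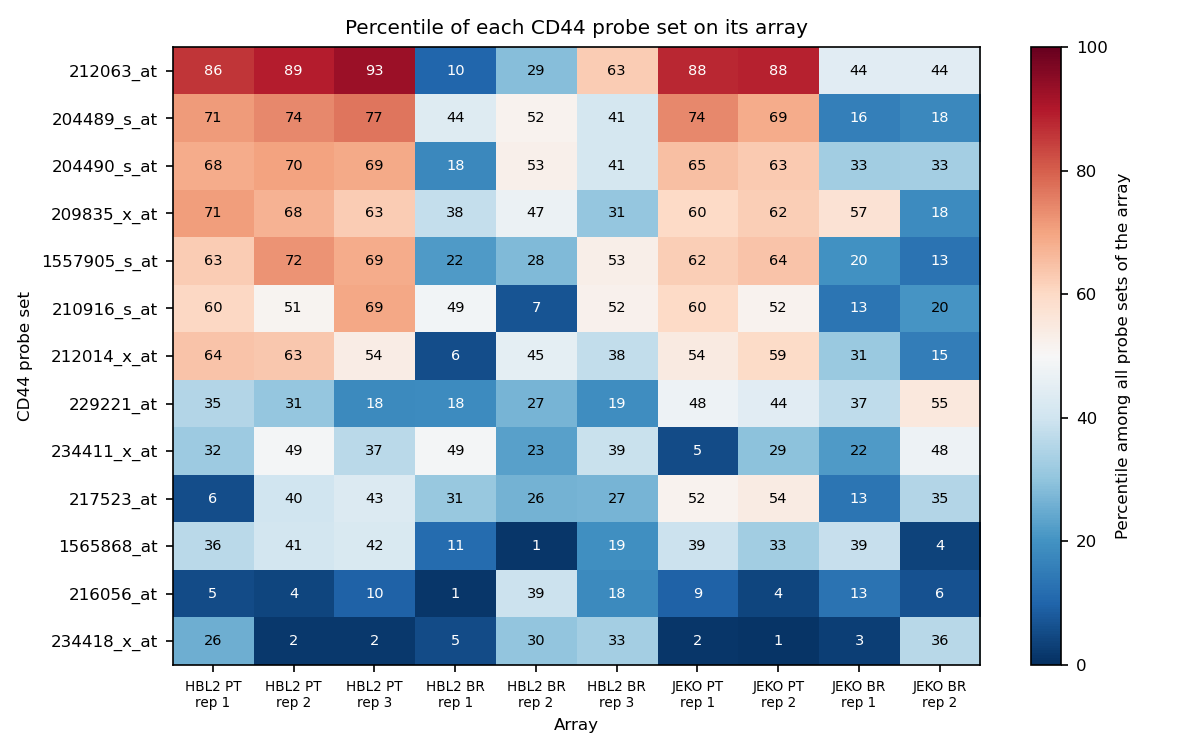
Percentile of each CD44 probe set among all probe sets of its array (colour and printed number; rows are probe sets by mean score, columns are arrays). In the top row PT arrays read 86 to 93 and BR arrays 10 to 63, and from the eighth row down PT and BR columns do not separate as a block.

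The 6 remaining probe sets were near or below the array median and disagreed with each other. The files hold no call of whether a probe set was detected, so whether these 6 read any CD44 RNA was not tested. The probe set 1565868_at scored 0.60, 0.64 and 0.65 in HBL2 PT and 0.34, 0.08 and 0.43 in HBL2 BR, a change of -0.35 ± 0.13 without overlap. In JEKO it scored 0.62 and 0.56 in PT and 0.62 and 0.17 in BR, with overlap, and its change of -0.20 ± 0.15 turned to 0.024 without BR replicate 2. The probe set 217523_at changed by 0.012 ± 0.12 in HBL2, with PT values of 0.23, 0.63 and 0.66 around BR values of 0.55, 0.50 and 0.51. In JEKO it was lower in BR without overlap, with 0.75 and 0.78 in PT, 0.36 and 0.58 in BR and a change of -0.29 ± 0.14, or -0.18 without BR replicate 1.

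For 229221_at the changes were -0.063 ± 0.095 in HBL2 and 0.0078 ± 0.12 in JEKO, both smaller than their errors. For 234411_x_at they were -0.022 ± 0.11 and 0.21 ± 0.14, and for 216056_at 0.13 ± 0.13 and 0.061 ± 0.16. With 1 array left out, the JEKO change of 234411_x_at ran from 0.050 without PT replicate 1 to 0.37 without PT replicate 2. The HBL2 change of 216056_at ran from 0.0079 without BR replicate 2 to 0.28 without BR replicate 1. The lowest probe set, 234418_x_at, was the one that went the other way without overlap in a line. It scored 0.08 and 0.04 in JEKO PT and 0.15 and 0.59 in JEKO BR, a change of 0.31 ± 0.18 that was 0.086 without BR replicate 2 and 0.53 without BR replicate 1. Its HBL2 change was 0.21 ± 0.15, and 0.14 to 0.35 with 1 array left out, the highest without PT replicate 1. Which exons each of the 13 probe sets covers was not analysed here, so the difference between the kinds cannot be assigned to standard or variant transcripts.

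A contrast that played no part in choosing CD44 is the level of HBL2 against JEKO over PT and BR together, and it was tested with limma across all probe sets. For 212063_at HBL2 minus JEKO was -0.012 ± 0.092 (95% interval -0.21 to 0.18, limma adjusted p = 0.96). Of the 13 probe sets 0 passed an adjusted p under 0.05, where 15.5% of all probe sets did, and 2 of the 13 had an unadjusted p under 0.05, as did 25.7% of all probe sets. These 2 pointed in opposite directions. 204489_s_at was higher in HBL2 by 0.18 ± 0.063 (95% interval 0.043 to 0.31, adjusted p = 0.073), and 229221_at was lower in HBL2, at -0.21 ± 0.075 (95% interval -0.37 to -0.048, adjusted p = 0.078). The intervals of the 7 higher probe sets together spanned -0.21 to 0.33, so line differences of that size remain possible. The change in HBL2 minus that in JEKO, which shares its arrays with the contrast that chose CD44, was -0.16 ± 0.18 for 212063_at and is given without a test.

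Genes around CD44 were read from 6 lists of 67 genes, grouped by role, of which 61 were measured here with the brightest probe set of each gene. The lists were chosen with earlier results of these data known, so the shares of all genes are printed for scale. By limma, with p-values adjusted over all probe sets, 7 of 61 passed in HBL2, where 6.29% of all genes passed. Of the 61, 4 were higher in BR and 3 lower, beside 2.42% and 3.87% of all genes. In JEKO 1 of 61 passed, where 1.56% of all genes passed, and it was lower in BR, as were 0.576% of all genes. For 6 of the 61 the HBL2 change differed from the JEKO change by limma's interaction term, which 4.04% of all genes passed. The median change of the 61 was -0.0077 in HBL2 and -0.013 in JEKO, beside -0.0030 and 0.0086 over all genes. An unadjusted p under 0.05 was found for 14 of 61 in HBL2 and 17 of 61 in JEKO, beside 18.4% and 13.9% of all genes.

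Hyaluronan itself is made by HAS synthases, cut by hyaluronidases and bound by other receptors. Of these 10 measured genes 0 passed in either line, beside 6.29% of all genes in HBL2 and 1.56% in JEKO. An unadjusted p under 0.05 was found for 0 and 1 of them, beside 18.4% and 13.9% of all genes. The hyaluronan receptor HMMR changed by -0.020 ± 0.061 in HBL2 and -0.11 ± 0.075 in JEKO.

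The list of other ligands and co-receptors, with 9 measured genes, held 4 of the 7 genes that passed in HBL2, where 6.29% of all genes passed. In JEKO 0 of the 9 passed, beside 1.56% of all genes. LGALS9, which encodes galectin-9, a sugar-binding protein known to bind CD44, fell from 1.61 ± 0.14 to 0.71 ± 0.22 in HBL2 (SD, n = 3 each). Its PT arrays ran from 1.52 to 1.77 and its BR arrays from 0.54 to 0.95, without overlap, and the change was -0.90 ± 0.10 (limma adjusted p = 5.3e-05). In JEKO it was 1.05 ± 0.010 in PT and 1.04 ± 0.12 in BR (SD, n = 2 each), and BR minus PT was -0.010 ± 0.12 (adjusted p = 0.99).

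CD74 is the receptor of the cytokine MIF and signals with CD44 as its partner. It fell in HBL2 by 0.63 ± 0.095 on its brightest probe set (adjusted p = 7.5e-04), from 2.95 to 3.34 in PT to 2.37 to 2.70 in BR. Its other 2 probe sets, with mean scores of 0.46 and 1.05 against 2.96 for the brightest, gave -0.11 ± 0.11 and 0.040 ± 0.072. Its HBL2 change therefore turned to 0.040 with the median over probe sets. In JEKO the brightest probe set gave 0.025 ± 0.12. MIF, at the 99.2nd to 99.6th percentile on average in every group, changed by -0.15 ± 0.066 in HBL2 (adjusted p = 0.32) and 0.22 ± 0.081 in JEKO (adjusted p = 0.27).

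CXCR4, the chemokine receptor that guides B cells to marrow and lymph node, fell by 0.35 ± 0.069 in HBL2 (adjusted p = 0.0069). Its other 2 probe sets gave -0.15 and -0.096 there, and the call was lost with the median over them (-0.11, adjusted p = 0.70). In JEKO its change was 0.012 ± 0.085. ITGB1, the integrin beta chain that pairs with ITGA4, rose by 0.26 ± 0.053 in HBL2 (adjusted p = 0.010) and changed by -0.098 ± 0.065 in JEKO. Leaving out HBL2 BR replicate 1 or replicate 2 ended that call (adjusted p = 0.055 and 0.069). So did taking the median of its 7 probe sets, whose mean scores ran from 0.33 to 2.44 (0.12, adjusted p = 0.51). ITGA4, the alpha chain, gave -0.22 ± 0.11 in HBL2 (adjusted p = 0.41) and -0.39 ± 0.14 in JEKO (adjusted p = 0.25) on its brightest probe set. Its other probe sets gave -0.23, -0.29 and -0.37 in HBL2, and the last of these passed limma (adjusted p = 0.011). In JEKO the same probe sets gave -0.28, -0.29 and 0.013. With the median over its probe sets ITGA4 also passed in HBL2 (-0.27, adjusted p = 0.043), so its HBL2 result depends on the probe set read.

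**Figure D4:**
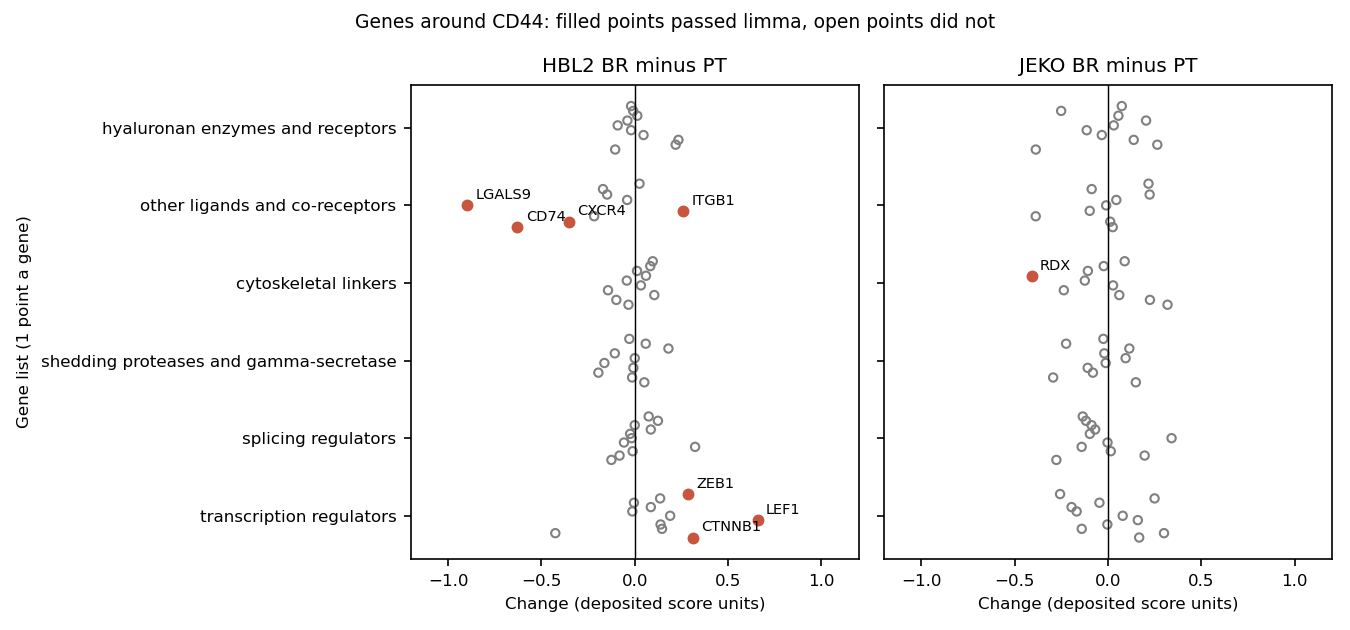
BR minus PT (x axis, deposited score units) of the 61 measured genes in 6 lists around CD44, left for HBL2 and right for JEKO; 1 point is a gene, filled and named where it passed limma at an adjusted p under 0.05. In HBL2 7 genes are filled, from LGALS9 at -0.90 to LEF1 at 0.66, and in JEKO RDX alone is filled at -0.41.

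The ERM proteins ezrin, radixin and moesin join the CD44 tail to actin. In HBL2 0 of 10 measured linker genes passed, beside 6.29% of all genes. RDX, the gene of radixin, was the 1 of 10 that passed in JEKO, where 0.576% of all genes passed as lower. It fell there by 0.41 ± 0.073 (adjusted p = 0.013). Its JEKO PT arrays lay at 2.49 to 2.54 and its BR arrays at 2.07 to 2.14, and its HBL2 change was 0.060 ± 0.060. The RDX call was lost when any 1 JEKO array was left out, with adjusted p-values of 0.082 without PT replicate 2, 0.15 without PT replicate 1, 0.13 without BR replicate 1 and 0.11 without BR replicate 2, and with the median over probe sets (adjusted p = 0.075). EZR gave -0.099 ± 0.063 in HBL2 and 0.22 ± 0.077 in JEKO (adjusted p = 0.55 and 0.24). MSN gave -0.14 ± 0.065 and -0.24 ± 0.079 (adjusted p = 0.33 and 0.22).

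Among the proteases that shed CD44 and the gamma-secretase subunits, 0 of 10 measured genes passed in either line, with 2 and 3 at an unadjusted p under 0.05. Of all genes 6.29% passed in HBL2 and 1.56% in JEKO, and 18.4% and 13.9% had an unadjusted p under 0.05. ADAM10, a main sheddase of CD44, changed by 0.051 ± 0.053 in HBL2 and 0.15 ± 0.065 in JEKO (adjusted p = 0.77 and 0.40). Among splicing regulators, read on their brightest probe sets, 0 of 11 passed in either line, with 1 and 2 at an unadjusted p under 0.05. SRSF1 gave -0.069 ± 0.072 in JEKO on its brightest probe set. Another SRSF1 probe set, with a mean score of 1.36, rose there by 0.82 ± 0.093 (limma adjusted p = 4.3e-04). In HBL2 that probe set gave -0.23 ± 0.076 (adjusted p = 0.13). The remaining SRSF1 probe sets ran from -0.21 to 0.36 in JEKO, so its JEKO result depends on the probe set read. ESRP1, an epithelial splicing factor that favours variant exons of CD44, averaged between the 14th and 37.4th percentile in the 4 groups and changed by -0.13 ± 0.14 and -0.28 ± 0.17.

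Among 11 measured regulators of CD44 transcription, 3 passed as higher in HBL2, beside 2.42% of all genes, and 0 passed in JEKO, beside 1.56%. EGR1 was lower in HBL2 BR on its brightest probe set without passing (-0.43 ± 0.12, adjusted p = 0.062). Its other probe sets gave -0.034 and -0.42 in HBL2, and the last of these passed (adjusted p = 0.044). In JEKO the brightest EGR1 probe set gave 0.30 ± 0.15 (adjusted p = 0.47). LEF1, a DNA-binding partner of beta-catenin, went from 1.75 to 1.87 in HBL2 PT to 2.45 to 2.47 in HBL2 BR, a rise of 0.66 ± 0.059 (adjusted p = 4.9e-06), and changed by 0.16 ± 0.072 in JEKO (adjusted p = 0.43). CTNNB1, which encodes beta-catenin, rose by 0.31 ± 0.069 in HBL2 (adjusted p = 0.017) and changed by 0.17 ± 0.085 in JEKO. ZEB1, a zinc-finger repressor, rose by 0.28 ± 0.058 in HBL2 (adjusted p = 0.0098) and changed by -0.26 ± 0.072 in JEKO (adjusted p = 0.12). Leaving out HBL2 BR replicate 2 ended the calls of CTNNB1 and ZEB1 (adjusted p = 0.067 and 0.072), and leaving out replicate 1 ended that of CTNNB1 (adjusted p = 0.087). Taking the median of each gene's probe sets, ZEB1 gave 0.22 (adjusted p = 0.089) and LEF1 0.35 (adjusted p = 0.0064). Without HBL2 BR replicate 2 the HBL2 count over the 6 lists was 4 in place of 7. Without the intensity trend in the fit, the calls of CXCR4, ITGB1, CTNNB1, ZEB1 and RDX were lost (adjusted p = 0.055 to 0.11), and on percentile ranks those of CD74, CXCR4, ITGB1, CTNNB1 and RDX were (adjusted p = 0.099 to 0.17). In a fit of HBL2 alone CTNNB1 missed the threshold (adjusted p = 0.052).

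The 250 bases before the CD44 start are shown because several of these regulators bind DNA. They come from RefSeq at chr11:35138921-35139170 of GRCh38.p14, plus strand, directly 5′ of the annotated gene start, and the capitals mark the GC box, GGGCGG or its reverse complement, to which the factor SP1 binds.
CD44 promoter: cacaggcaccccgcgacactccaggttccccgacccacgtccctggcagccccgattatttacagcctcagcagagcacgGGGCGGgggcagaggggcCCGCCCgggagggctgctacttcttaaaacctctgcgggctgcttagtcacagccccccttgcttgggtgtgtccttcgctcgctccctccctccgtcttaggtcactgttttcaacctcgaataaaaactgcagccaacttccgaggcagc
The 2 GC boxes begin 170 and 152 bases before the start, and 42.3% of 27305 promoter windows of this length hold at least 1. Searched on both strands, the letters of an EGR1 motif (GCGNGGGCG, in 8.25% of windows), an AP-1 motif (TGANTCA, 6.60%), a TCF/LEF motif (CTTTGA, 11.4%) and the E-box CACGTG (6.49%) did not occur here. These are matches of letters in 1 window and not measurements of binding. SP1, named because of the motif, changed by -0.0047 in HBL2 and -0.046 in JEKO.

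The genes next to CD44 on the chromosome had much smaller changes than 212063_at. Of the 3 protein-coding neighbours on each side in the RefSeq gene table, read on their brightest probe sets, 0 of 6 passed limma in either line. Of all genes 6.29% passed in HBL2 and 1.56% in JEKO. An unadjusted p under 0.05 was found for 0 of the 6, beside 18.4% and 13.9% of all genes. On the lower side PDHX, a pyruvate dehydrogenase component, changed by 0.11 ± 0.060 in HBL2 and -0.096 ± 0.074 in JEKO. APIP, an enzyme of methionine salvage, changed by -0.046 and -0.058, and the epithelial factor EHF by -0.012 and 0.015. On the other side the glutamate transporter SLC1A2 changed by 0.11 and -0.18, PAMR1 by -0.068 and -0.15, and FJX1 by -0.047 and 0.026. On these probe sets EHF and SLC1A2 stayed below the 50th percentile on all but at most 1 array. The 6 probe sets of EHF, with mean scores of 0.28 to 0.52, ran from -0.11 to 0.33 in HBL2 and -0.26 to 0.25 in JEKO. Those of SLC1A2, with mean scores of 0.18 to 0.52, ran from -0.36 to 0.11 and from -0.18 to 0.11.

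Other genes with a profile like that of 212063_at were ranked by the root mean square difference between mean-centred scores over the 10 arrays, among 14444 genes at or above the 50th percentile on at least 2 arrays. The median over those genes was 0.56, and the spread of 212063_at about its own mean was 0.55 on the same measure. TUBB6, a beta-tubulin, came first at 0.22, followed by OSBPL10, a lipid-binding protein gene, at 0.24, and JCHAIN, the joining chain of polymeric antibodies, at 0.28. SMIM14 and FCGR2B had 0.28 and FCGR2C 0.29, and FCGR2B and FCGR2C encode closely related Fc receptors that probes may not separate. CD24, a B cell surface glycoprotein, had 0.30, and C16orf54, SH3BP4 and FAM107B had 0.31 each. The eleventh gene, at 0.32, was barely farther.

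These 10 genes were chosen for being lower where CD44 is lower, so their changes are only described. TUBB6 ran from 2.09 to 2.21 in HBL2 PT and 1.35 to 1.42 in HBL2 BR, and from 2.10 to 2.12 in JEKO PT and 1.33 to 1.36 in JEKO BR. Its change was -0.77 ± 0.056 in HBL2 and -0.77 ± 0.069 in JEKO. OSBPL10 differed more between the lines, with -1.43 ± 0.062 and -0.58 ± 0.076 on its brightest probe set. Its other probe sets, with mean scores of 0.50 to 0.87, gave -0.31 to -0.018 in HBL2 and -0.13 to 0.061 in JEKO. SMIM14 gave -0.59 and -0.48, SH3BP4 -0.52 and -0.59, and FAM107B -0.58 and -0.42. The other probe set of SH3BP4, with a mean score of 0.42, gave -0.0029 and 0.18, and that of FAM107B gave -0.45 and -0.36. The other SMIM14 probe sets gave -0.83 to -0.12 in HBL2 and -0.65 to -0.19 in JEKO. FCGR2B, JCHAIN and C16orf54 were lower mainly in HBL2 (-1.17, -1.08 and -1.14) with JEKO changes of -0.16, -0.38 and -0.066. All 10 were lower in BR without overlap in HBL2, as were 12.1% of all genes, and 9 were in JEKO, as were 20.8%. The ranking depends on its measure: 3 of the 10 were also in the first 10 by Pearson correlation, and 2 were when CD44 was read as the mean of its 8 probe sets at or above the 50th percentile on at least 2 arrays.

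Markers of cell types were read beside CD44, from lists that were also chosen with earlier results of these data known. Of 8 measured B cell and mantle cell markers, 7 averaged at or above the 50th percentile in both HBL2 groups and 8 in both JEKO groups. By limma 2 of the 8 passed in HBL2, CD79A and CD79B, the B cell receptor chains. Both fell (-0.35 and -0.25, adjusted p = 0.0021 and 0.035), where 3.87% of all genes passed as lower. The summed score of 5 plasma cell markers was 6.70 to 7.16 in HBL2 PT, 8.59 to 8.98 in HBL2 BR, 5.78 to 5.79 in JEKO PT and 6.41 to 6.80 in JEKO BR. By limma 4 of the 5 rose in HBL2, where 2.42% of all genes did, and 0 passed in JEKO, where 1.56% of all genes did. Unlike the sum, CD38 was lower in JEKO BR (-0.31 ± 0.090, adjusted p = 0.14). Its JEKO groups did not overlap, a pattern that 20.8% of all genes had. The summed score of 4 myeloid markers was 2.43 to 3.02 in HBL2 PT and 1.74 to 1.96 in HBL2 BR. It was 1.62 to 2.18 in JEKO PT against 1.79 to 2.09 in JEKO BR. Of the 4, LYZ alone passed limma in HBL2, where it was lower (-0.59, adjusted p = 0.015), beside 3.87% of all genes. The 5 T and NK cell markers summed to 2.61 to 2.85 in HBL2 PT, 2.24 to 2.51 in HBL2 BR, 2.62 to 2.73 in JEKO PT and 2.60 to 2.93 in JEKO BR. The 6 stromal and epithelial markers summed to 5.74 to 6.68 over all groups. The part of any of these in the CD44 values was not tested.

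Arrays of the same group correlated at 0.931 to 0.958. The beta-actin 3' minus 5' control difference, a sign of RNA quality, was 0.58 to 1.25 in HBL2 PT, 0.69 to 1.04 in HBL2 BR, 0.70 to 0.82 in JEKO PT and 0.76 to 1.01 in JEKO BR, so PT and BR overlapped in both lines. With it as a covariate the changes of 212063_at were -1.11 and -0.95.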

How the data were processed

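Biotin-labelled total RNA was hybridised to Affymetrix arrays, and per the submitters' processing notes MAS5 was used, with no version given. The values used are the deposited scores of 54675 probe sets, with 62 controls left out. The base of the score and any later step by the authors were not given in the sources used here. Sorted arrays differed by 0, and 0 other columns of values were present. Samples were grouped by their titles. The members and gene lists were chosen with earlier results of these data known. All 54613 probe sets were fitted without a filter with limma 3.58.1 in R 4.3.3 (4 group means, eBayes with an intensity trend, 6 residual degrees of freedom, mean prior degrees of freedom 9.47). P-values are two-sided and adjusted by Benjamini-Hochberg over all of them. Of the probe sets, 41091 had 1 gene symbol, 1801 several and 11721 none, and the symbols of 41042 were found in the RefSeq table (GRCh38.p14). A gene was represented by its single-symbol probe set with the highest mean (19775 genes). Values after ± are SD beside a mean and SE beside a change. Named genes were the CD44 probe sets, the 10 most alike, at most 4 called genes of a list in each line, 9 set genes and 3 neighbours on each side. The fit was tested on simulated data. The number of arrays limits the precision.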

Additional observations from a re-analysis of the deposited data

Results flagged for a closer look

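For 6 genes around CD44 the change in HBL2 differed from that in JEKO by limma's interaction term (adjusted p under 0.05, which 4.04% of all genes passed). HBL2 change minus JEKO change was -0.89 for LGALS9 (adjusted p = 0.0066) and -0.65 for CD74 (adjusted p = 0.030), both lower in BR in HBL2. It was 0.36 for ITGB1 (adjusted p = 0.036), 0.47 for RDX (adjusted p = 0.014), 0.50 for LEF1 (adjusted p = 0.0084) and 0.54 for ZEB1 (adjusted p = 0.0044). For CXCR4 it was -0.36 (adjusted p = 0.11) and for CTNNB1 0.14 (adjusted p = 0.66), so their calls in HBL2 are not shown to differ from JEKO.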

How the results depend on the processing

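The change of 212063_at was -1.27 to -0.98 in HBL2 and -0.97 to -0.94 in JEKO when 1 array was left out, and -0.27 and -0.33 with the median over all 13 CD44 probe sets. Its line difference was 0.042 with that median and -0.091 to 0.054 with 1 array left out. CD44 probe sets called for the line difference numbered 1 with the 50th percentile filter, percentile ranks, normal scores and the beta-actin covariate (204489_s_at, adjusted p = 0.037, 0.040, 0.015 and 0.049) and 1 without the trend (229221_at, adjusted p = 0.0496), against 0 in the fit reported. The HBL2 count over the lists was 3 without the trend, 3 with percentile ranks, 4 with the gene median and 4 to 8 with 1 array left out. The JEKO count was 0 without the trend, 2 with the 75th percentile filter, percentile ranks, normal scores or beta-actin, and 0 to 2 with 1 array left out. With the gene median, HBL2 changes were 0.040 for CD74, 0.078 for APIP, 0.16 for EHF and -0.093 for SLC1A2, and JEKO changes were -0.072 for ADAM10 and -0.045 for EHF. EHF gave 0.083 in HBL2 with array weights, and CD74 gave -0.051 in JEKO with beta-actin. With 1 array left out, small changes crossed 0 in HBL2 for HMMR (-0.080 to 0.039), ESRP1 (-0.24 to 0.053), EHF (-0.12 to 0.061), APIP (-0.11 to 0.069), PAMR1 (-0.15 to 0.028) and FJX1 (-0.10 to 0.025), and in JEKO for CD74 (-0.036 to 0.086), APIP (-0.15 to 0.038), EHF (-0.077 to 0.11) and FJX1 (-0.040 to 0.093). The cause was not tested. Replicate numbers did not pair the arrays (correlations of same-numbered deviations -0.028 to 0.063). The replicate block gave list counts of 9 and 1, 0 CD44 probe sets called and a line difference of -0.012. The pseudocounts planned for linear values were not run, since the scores are log-like. Without 1 JEKO array its group has a single array, assumed to vary like the others.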
